A study of Mus musculus with 12 samples.

Results

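The genes described here encode the Hsp70 and Hsp90 chaperones of the endoplasmic reticulum (ER), the J proteins and exchange factors that work with them, and their cofactors. They are Hspa5, Hsp90b1, Hyou1, Sil1, Dnajb9, Dnajb11, Dnajc3, Dnajc10, Sdf2l1 and Manf, chosen by name, and they make up 10 of the 14568 genes tested. The platform annotation gave them 21 probe sets, and all 10 genes and all 21 probe sets passed the filter on dim signals. Liver RNA of C57Bl/6J mice aged 3 months was measured on 12 one-colour Affymetrix arrays, 3 biological replicates in each of 4 groups. The groups were Ire1α null livers with tunicamycin (titled Fe-CRE+Tm), control livers with tunicamycin (Fe+CRE+Tm), null livers with vehicle (Fe-CRE+) and control livers with vehicle (Fe+CRE+). Mice received tunicamycin by intraperitoneal injection in a dose of 2 µg per g of body weight, with 150 µM dextrose as the vehicle of the other animals, and livers were collected 8 hours later. The null animals are described as conditional, and both genotypes carry CRE+ in their titles. What drives Cre, and which part of the Ire1α gene is deleted, is stated in no source used here.

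In the ER, BiP, the product of Hspa5, binds and releases unfolded proteins as it hydrolyses ATP. J proteins bring it clients and start hydrolysis, nucleotide exchange factors reset it, and Grp94, the Hsp90 of the ER, takes over a set of later clients. Tunicamycin blocks N-linked glycosylation, so that unfolded protein gathers in the ER and the unfolded protein response raises these genes through the ATF6, PERK and IRE1 branches. IRE1α, encoded by Ern1, splices the Xbp1 transcript, and the spliced product is a transcription factor for many ER genes. The liver secretes much of the protein of plasma and depends on this machinery.

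The promoters of these genes differ in the elements through which ATF6 and XBP1 are known to act, so those with such an element in the bases before the start are shown with Dnajc10, the gene whose response differed most between genotypes. Dnajb11 carries its element, ATTGGCCCACG, after the start, outside the bases printed. RefSeq promoters of GRCm38.p6, 250 bases before to 50 bases after each annotated start, were found for 7 of the 10 genes (not Hyou1, Sil1 or Manf), and both strands were searched. The bases before the start, from -220 to -1, are printed 5′ to 3′ on the strand of the gene. They lie at chr2:34771870-34772089 (plus strand) for Hspa5, chr10:86705445-86705664 (minus) for Hsp90b1, chr14:118937712-118937931 (plus) for Dnajc3, chr12:44210069-44210288 (minus) for Dnajb9 and chr2:80315246-80315465 (plus) for Dnajc10. Capitals mark the ER stress element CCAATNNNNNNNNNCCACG, its shorter form CCAATNNNNNNNNNCCA, the XBP1 core CCACGT and the TGACGTG core, on either strand.
Hspa5: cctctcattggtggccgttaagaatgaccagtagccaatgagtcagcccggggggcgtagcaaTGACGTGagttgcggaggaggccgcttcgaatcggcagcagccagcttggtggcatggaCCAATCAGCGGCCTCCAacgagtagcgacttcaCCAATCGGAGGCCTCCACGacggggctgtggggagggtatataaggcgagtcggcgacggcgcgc
Hsp90b1: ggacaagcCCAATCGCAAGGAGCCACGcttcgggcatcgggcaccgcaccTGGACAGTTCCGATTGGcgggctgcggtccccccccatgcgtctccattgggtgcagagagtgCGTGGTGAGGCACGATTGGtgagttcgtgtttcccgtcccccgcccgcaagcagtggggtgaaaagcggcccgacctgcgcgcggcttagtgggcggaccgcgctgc
Dnajc3: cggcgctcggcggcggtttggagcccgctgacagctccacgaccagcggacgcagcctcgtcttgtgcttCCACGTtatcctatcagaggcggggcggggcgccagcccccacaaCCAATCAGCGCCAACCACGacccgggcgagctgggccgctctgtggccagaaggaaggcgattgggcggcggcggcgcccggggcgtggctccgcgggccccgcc
Dnajb9: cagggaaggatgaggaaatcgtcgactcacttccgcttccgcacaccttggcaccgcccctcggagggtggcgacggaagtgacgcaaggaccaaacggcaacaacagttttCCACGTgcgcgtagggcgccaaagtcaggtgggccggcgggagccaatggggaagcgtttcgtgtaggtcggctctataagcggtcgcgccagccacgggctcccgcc
Dnajc10: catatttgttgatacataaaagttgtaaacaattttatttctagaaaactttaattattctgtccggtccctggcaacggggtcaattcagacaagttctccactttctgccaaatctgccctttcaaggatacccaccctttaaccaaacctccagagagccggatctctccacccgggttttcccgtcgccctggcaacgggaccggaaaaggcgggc

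The full ER stress element was present in Hspa5 (-65 to -47), in Hsp90b1 on both strands (-212 to -194 and, reversed, -107 to -89) and in Dnajc3 (-105 to -87), and in 0.119% of all 32851 RefSeq promoters. The shorter form contains the first part of the full element and occurred once more in Hspa5 (-98 to -82) and once more in Hsp90b1 (-170 to -154, reversed), against 1.09% of all promoters. CCACGT was found in Dnajc3 (-150 to -145) and Dnajb9 (-108 to -103) and in 8.31% of promoters, and TGACGTG in Hspa5 (-157 to -151) and 2.01%. The second kind of ER stress element, ATTGGNCCACG, was found in Dnajb11 (8 to 18 bases after the start) and in 0.0365% of promoters. Every promoter of the set that was found, except that of Dnajc10, held a CCAAT box, as did 37.4% of all promoters. TGATGNAAT, the composite site for CHOP and ATF factors, was in 0.965% of promoters and in none of these 7. Dnajc10 had no match to any of these motifs and Sdf2l1 only CCAAT boxes. A match describes letters in this window and was not tested as a binding site.

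The trimmed mean intensity of the arrays lay between 227 and 302. On the second principal component (15.8% of the variance), 1 array stood apart, null tunicamycin replicate 2 at -65.6, while the other 11 spanned -0.701 to 18.4. On that array 12 of 16 measured kidney markers were more than 1 log2 unit above every other array. The summed kidney marker intensity spanned 577 to 35490 in null and 473 to 568 in control livers with tunicamycin, against 742 to 792 in null and 581 to 751 in control livers with vehicle. Summed hepatocyte markers spanned 115566 to 119635 in null and 114517 to 121215 in control livers with tunicamycin, all above the 108772 to 109521 in null and 102124 to 110701 in control livers with vehicle. Of these 10 markers 7 were within 1 log2 unit of the brightest probe set on every array, so their sum is a coarse measure. Of 62 measured markers in 9 lists of liver cell types, kidney and pancreas, limma called 0 different between the genotypes with tunicamycin (6 had an unadjusted p under 0.05), and tunicamycin against vehicle called 2 lower in null and 3 lower in control livers. The macrophage marker Adgre1 fell in both genotypes (-0.81 in null, adjusted p = 0.0195, and -0.75 in control livers, adjusted p = 0.0196), Timd4 of Kupffer cells in null livers (-0.93, adjusted p = 0.0165), and Jchain and Slc5a2 in control livers. Over the 8 Kupffer cell and macrophage markers the median change with tunicamycin was -0.57 in each genotype. With tunicamycin all 8 were lower in null than in control livers in value, without a call (-0.74 to -0.09, median -0.65), as were all 8 with vehicle (median -0.34). Their summed intensity spanned 4351 to 8830 in null and 7361 to 9844 in control livers with tunicamycin, against 5359 to 8559 in null and 6909 to 11932 in control livers with vehicle, and their part in the results was not tested. The 5' to 3' Gapdh ratio, which falls as RNA degrades, was 0.37 to 0.435 in null and 0.523 to 0.577 in control livers with tunicamycin, against 0.181 to 0.642 in null and 0.352 to 0.774 in control livers with vehicle. In this ratio the null and control groups with tunicamycin did not overlap. The same ratio for actin was 0.205 to 0.434 in null and 0.295 to 0.389 in control livers with tunicamycin, against 0.296 to 0.633 in null and 0.454 to 1.1 in control livers with vehicle, so that the control groups did not overlap. Ern1, the targeted gene, was not called different between genotypes at any of its 5 probe sets. Its brightest probe set read 4793, 2147 and 3894 in null and 3697, 2950 and 3513 in control livers with tunicamycin, then 1489, 1142 and 1083 in null and 1846, 1344 and 1119 in control livers with vehicle. No source used here says where these probe sets lie relative to the deleted part, so the level of Ern1 is no check of the genotype labels.

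Tunicamycin raised 8 of the 10 genes in null livers and 10 in control livers, of which 9 held in every alternative tried and the tenth, Sil1, was lost in 19 of 29 (adjusted p = 0.049 by limma). Changes are log2 differences ± the standard error of a limma fit over all genes with 3 arrays per group, a call needs a Benjamini-Hochberg adjusted p under 0.05, and each gene is read by its brightest probe set unless another is named. Of all genes tested 7.59% were called higher and 9.23% lower in null livers, and 11.6% were called higher and 13.3% lower in control livers. The median change of the 10 genes was 1.66 in null livers, where the median over all genes was -0.07, and 1.87 in control livers, where that over all genes was -0.11. Normalised values of the tunicamycin and vehicle groups did not overlap for 8 of the 10 genes in null livers and for 10 in control livers, against 33.1% and 42.6% of all genes. Over the 21 probe sets, fitted together with every probe set on the array that had 1 gene symbol, 17 were called higher in null livers (4.23% of all probe sets) and 20 in control livers (7.67%). In a fit that took the actin ratio into account 8 genes were called higher in null and 9, all but Sil1, in control livers, while calls over all genes in control livers numbered 1765, against 3636 without it. Both comparisons with vehicle use the same tissue in bulk, where fewer cells of a type and less RNA per cell cannot be told apart.

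**Figure D1:**
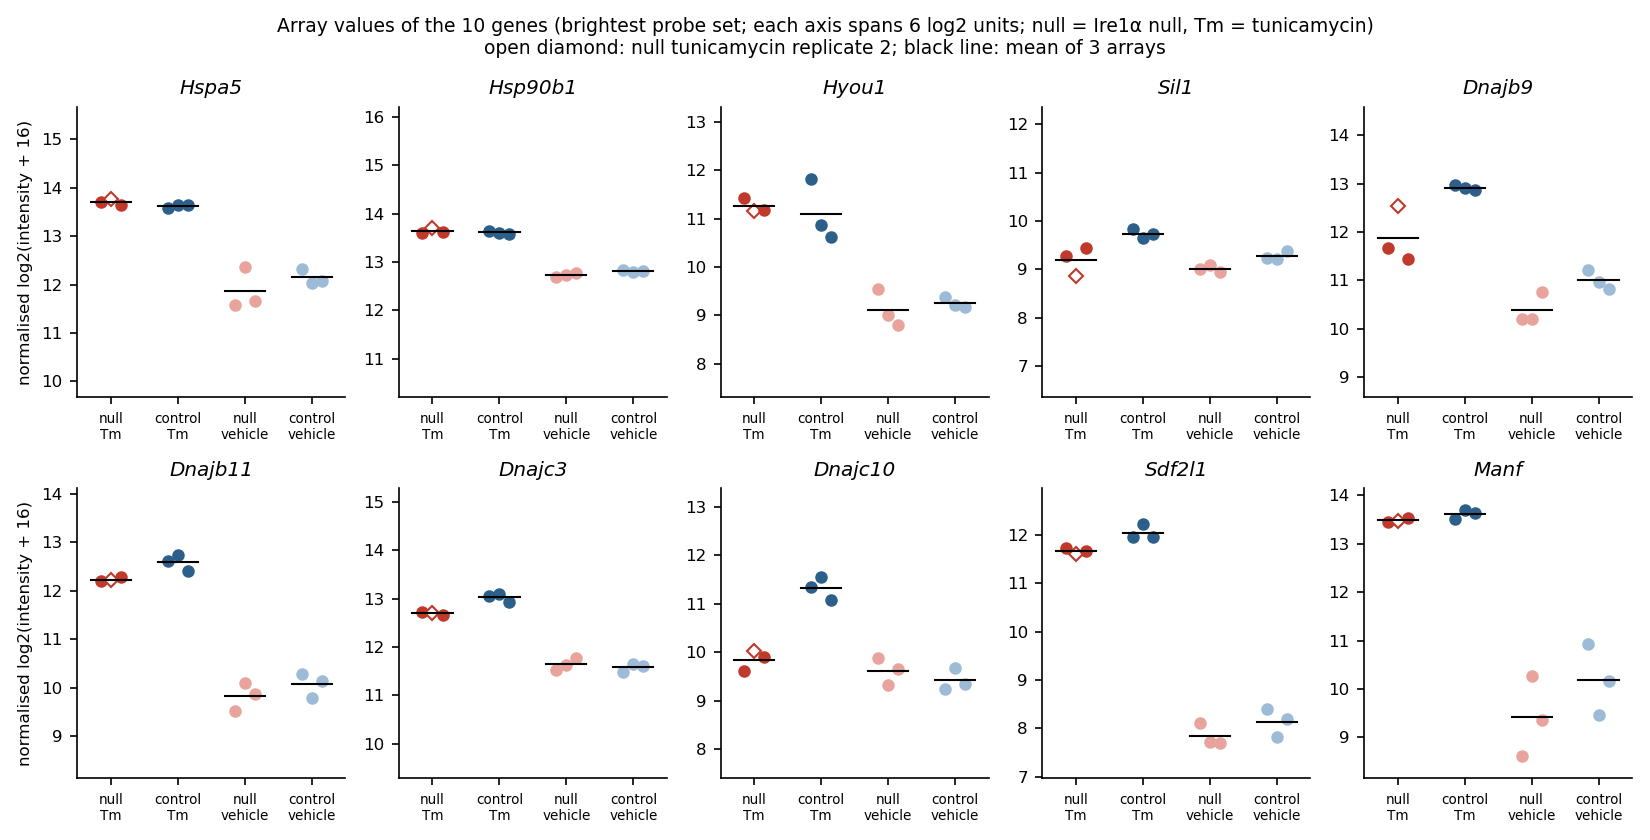
Normalised log2(intensity + 16) of the brightest probe set of each of the 10 genes on the 12 arrays, 3 points per group, with black lines for group means. The open diamond is null tunicamycin replicate 2. Dnajc10 values of null livers with tunicamycin stand near the vehicle values, while those of control livers with tunicamycin stand above every other group.

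Response size was described as the null response in percent of the control response, a ratio of log2 changes, with under 80% called partial by size. At or above this line were 6 genes, and 4 were below it. The values nearest to it were 77.8 ± 16.9% (SE) for Dnajb9 just below and 95.7 ± 9.77% for Dnajb11 above. The difference between the 2 responses was tested as the genotype by treatment interaction, and only Dnajc10 was called (0.824% of all genes were called lower). Of the 1693 genes that rose in control livers the median kept 60.2%, and 66.1% of them kept under 80%. Those genes were picked by their call in control livers, the denominator of the ratio, which by itself lowers the percent kept, so nothing is read from these shares.

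**Figure D2:**
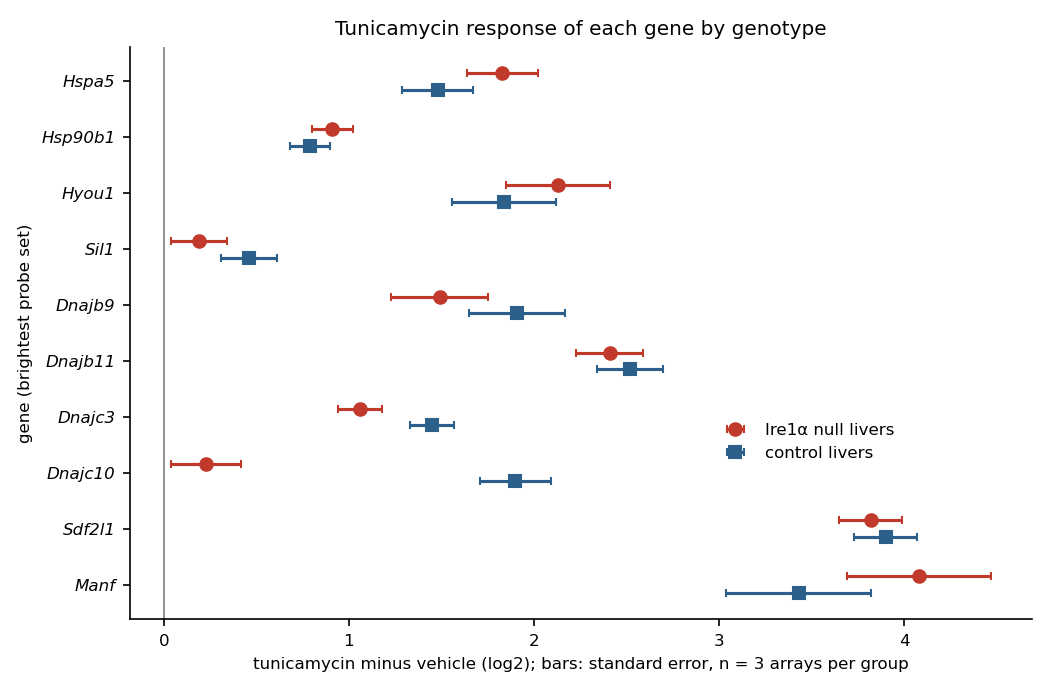
Tunicamycin minus vehicle (log2) of each gene in null livers (circles) and control livers (squares), with bars for the standard error and 3 arrays per group. The pair of points farthest apart is that of Dnajc10, at 0.23 in null and 1.90 in control livers. The next is that of Manf, at 4.08 in null and 3.43 in control livers.

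Hspa5, which encodes BiP, the central Hsp70 of the ER, rose in both genotypes. Its brightest probe set read 13304, 14345 and 13303 in null and 12725, 13792 and 13310 in control livers with tunicamycin, against 2642, 5145 and 2843 in null and 5110, 3911 and 4039 in control livers with vehicle. The 2 tunicamycin groups overlapped each other and lay wholly above both vehicle groups. The rise was 1.83 ± 0.19 (3.56-fold, adjusted p = 7.51e-05) in null and 1.48 ± 0.19 (2.79-fold, adjusted p = 0.00016) in control livers. The null response was 124 ± 20.6% of the control response, and the interaction of 0.35 had a 95% interval of -0.24 to 0.94. The other probe sets gave 2.97 in null and 2.51 in control livers (1427464_s_at) and 2.44 in null and 2.60 in control livers (1447824_x_at).

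Hsp90b1 encodes Grp94, the Hsp90 that folds secreted and membrane clients such as integrins and Toll-like receptors. It read 12839, 13609 and 13229 in null and 13354, 13504 and 12836 in control livers with tunicamycin, against 6052, 6751 and 6460 in null and 7167, 6901 and 6933 in control livers with vehicle. All tunicamycin arrays were above all vehicle arrays, and with vehicle every null array was below every control array. The rise was 0.91 ± 0.11 (adjusted p = 0.000213) in null and 0.79 ± 0.11 (adjusted p = 0.000264) in control livers, with 115 ± 21.1% kept and an interaction of 0.12 (95% interval -0.22 to 0.45). The dimmer probe set, 1438040_a_at, gave larger rises of 3.74 ± 0.58 in null and 2.90 ± 0.58 in control livers. Its vehicle values were 145, 644 and 421 in null and 2434, 357 and 648 in control livers, so that control vehicle replicate 1 stood far above the other vehicle arrays.

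The brightest probe sets of Hspa5, Hsp90b1 and Manf were near the top of the signal range. With tunicamycin they lay at or above the 99.85th percentile of their array and 0.20 to 0.76 log2 units below the array's brightest probe set, which read 14691 to 18741. The second Hspa5 probe set, 1427464_s_at, was also within 0.63 log2 units of the top with tunicamycin. The dimmest Hspa5 probe set, 1447824_x_at, lay 2.94 to 3.89 log2 units below the top. It read 2015, 1244 and 1798 in null and 1708, 1632 and 2039 in control livers with tunicamycin, against 265, 235 and 257 in null and 207, 227 and 272 in control livers with vehicle. Its null response was 93.9 ± 9.72% of the control response, with an interaction of -0.16 (95% interval -0.73 to 0.41). Whether signals near the top were compressed was not tested.

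**Figure D3:**
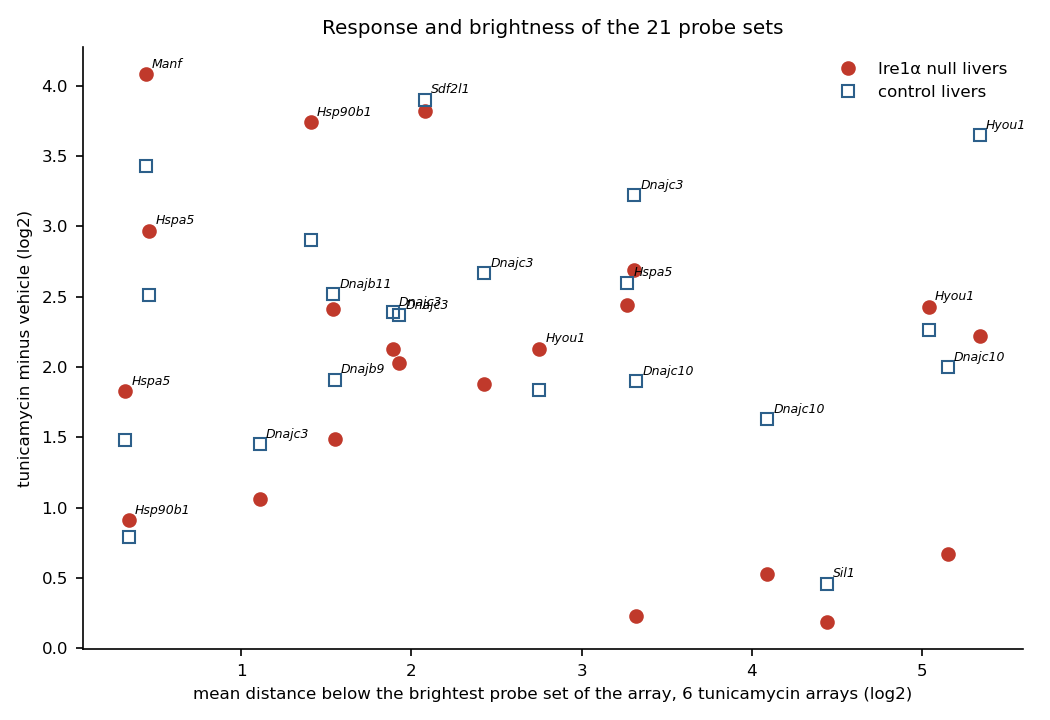
Tunicamycin minus vehicle (log2) of all 21 probe sets in null livers (circles) and control livers (squares), against the mean distance of the probe set below the brightest one on the 6 tunicamycin arrays (log2). There are 4 probe sets, of Hspa5, Hsp90b1 and Manf, that lie within 1 log2 unit of the top, and the 3 of Dnajc10 lie between 3.32 and 5.15 units below it.

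Hyou1 and Sil1 encode nucleotide exchange factors of BiP. Hyou1, a large Hsp70 relative also known as Grp170, rose by 2.13 ± 0.28 in null livers (adjusted p = 0.000343) and 1.84 ± 0.28 in control livers (adjusted p = 0.000453), with 116 ± 22.9% kept. Its brightest probe set read 3055, 2103 and 2619 in null and 3998, 2035 and 1712 in control livers with tunicamycin, and 388 to 626 in null and 489 to 666 in control livers with vehicle. The control tunicamycin arrays were spread widely, with replicate 1 the highest of all 12. The 3 probe sets of Hyou1 differed. 1423290_at kept 107%, whereas 1451913_a_at kept 60.9 ± 10.6%, with 300, 168 and 360 in null and 380, 731 and 770 in control livers with tunicamycin, and its interaction of -1.42 ± 0.47 was not called (adjusted p = 0.402). A full response of Hyou1 therefore rests on 2 of its 3 probe sets.

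Sil1 had the smallest response of the set. It read 707, 404 and 814 in null and 1055, 845 and 878 in control livers with tunicamycin, against 431, 513 and 435 in null and 604, 534 and 561 in control livers with vehicle. The control arrays with tunicamycin were all above those with vehicle, while the null groups overlapped through null tunicamycin replicate 2, the array with the kidney transcripts. The change was 0.19 ± 0.15 in null livers (adjusted p = 0.46) and 0.46 ± 0.15 in control livers (adjusted p = 0.049). The control call was lost in 19 of 29 alternatives, where adjusted p ran from 0.0179 to 0.29 over all of them, and leaving out any array of either control group gave adjusted p of 0.0723 to 0.148. The percent kept was 40.9 ± 36.6 and became 77.4 without null tunicamycin replicate 2. With tunicamycin, null minus control was -0.53 ± 0.15 (adjusted p = 0.0904), and -0.37 (adjusted p = 0.219) without that array.

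Of the 4 J proteins, Dnajb11 kept nearly all of its rise, Dnajb9 and Dnajc3 kept less by size, and Dnajc10 kept little. Dnajb11 (ERdj3), a soluble J protein that binds unfolded clients directly, read 4995, 4527 and 5511 in null and 6742, 7358 and 5828 in control livers with tunicamycin, and 611 to 1030 in null and 803 to 1233 in control livers with vehicle. Every null array with tunicamycin was below every control array with it. The rises were 2.41 ± 0.18 (5.32-fold, adjusted p = 6.9e-06) in null and 2.52 ± 0.18 (5.74-fold, adjusted p = 2.06e-06) in control livers, and null minus control with tunicamycin was -0.36 ± 0.18 (adjusted p = 0.375).

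Dnajb9 (ERdj4) passes misfolded proteins to ER-associated degradation. It read 3553, 5776 and 3115 in null and 8467, 8256 and 7631 in control livers with tunicamycin, against 993, 1109 and 1534 in null and 2314, 1853 and 1640 in control livers with vehicle. Null arrays were below control arrays under both treatments without overlap, and the highest null tunicamycin value came from replicate 2. The rise was 1.49 ± 0.26 in null livers (adjusted p = 0.00212) and 1.91 ± 0.26 in control livers (adjusted p = 0.000203), and the interaction of -0.43 was not called (95% interval -1.21 to 0.36, adjusted p = 0.869). With tunicamycin null livers were lower by a log2 difference of -1.04 ± 0.26 (0.487 of the control level, adjusted p = 0.0448). With vehicle the difference was -0.61 ± 0.26 (adjusted p = 0.988, unadjusted p = 0.0342). Without null tunicamycin replicate 2 the difference with tunicamycin was -1.36 ± 0.20 (adjusted p = 0.00258) and the percent kept fell to 60.6, against 77.8 with all arrays. The call at -1.04 was lost in 19 of 29 alternatives, with adjusted p up to 0.153, and leaving out any other tunicamycin array gave 0.0988 to 0.153. A limma fit that took the Gapdh ratio into account gave -1.02 ± 0.29 (adjusted p = 0.0942).

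Dnajc3 (p58IPK), a J protein with tetratricopeptide repeats that was first described as an inhibitor of eIF2α kinases, had 5 probe sets. The brightest read 7044, 6434 and 7088 in null and 9014, 9440 and 8048 in control livers with tunicamycin, and 2591 to 3071 in null and 2754 to 3032 in control livers with vehicle. The tunicamycin groups did not overlap each other, and the vehicle groups did. The rise was 1.06 ± 0.12 in null livers (adjusted p = 0.000149) and 1.45 ± 0.12 in control livers (adjusted p = 7.03e-06). Rises at the other probe sets were larger, 1.88 to 2.69 in null and 2.37 to 3.22 in control livers. With tunicamycin the brightest lay 0.77 to 1.53 log2 units below the top of the array, and whether this lowered its rises was not tested. The brightest probe set kept 73 ± 10.4%, and the interaction of -0.39 had an interval of -0.77 to -0.02 and an adjusted p of 0.567. Over the 5 probe sets of Dnajc3 the percent kept ran from 70.4 to 89.1. With tunicamycin null minus control was below 0 at each of them, from -1.11 to -0.33, and was called at 1419162_s_at (-1.11 ± 0.15, adjusted p = 0.00173) and 1449372_at (-1.06 ± 0.25, adjusted p = 0.0456). 1419162_s_at read 2225, 1614 and 2423 in null and 4979, 5008 and 4047 in control livers with tunicamycin, against 493, 453 and 480 in null and 725, 603 and 530 in control livers with vehicle. Null arrays were below control arrays under both treatments at this probe set. Its interaction of -0.79 ± 0.21 (95% interval -1.24 to -0.34) was not called (adjusted p = 0.205). With the mean of the probe sets in place of the brightest one, the gene was called lower in null livers with tunicamycin (-0.88, adjusted p = 0.0115).

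Dnajc10 (ERdj5) joins a J domain to thioredoxin-like domains and reduces disulfide bonds of misfolded proteins before they leave the ER for degradation. It read 890, 930 and 1112 in null and 2884, 3294 and 2353 in control livers with tunicamycin, against 795, 604 and 703 in null and 603, 749 and 554 in control livers with vehicle. The control tunicamycin arrays stood apart from the other 9, while the 2 null groups overlapped after normalisation. The change was 0.23 ± 0.19 in null livers (1.17-fold, adjusted p = 0.469) and 1.90 ± 0.19 in control livers (3.74-fold, adjusted p = 2.81e-05). The interaction was -1.67 ± 0.27 (95% interval -2.27 to -1.07, adjusted p = 0.0177), and 12.1 ± 10.3% of the response was kept. With tunicamycin null livers stood at 0.359 of the control level (-1.48 ± 0.19, adjusted p = 0.00115), and with vehicle the difference was 0.19 ± 0.19 (adjusted p = 0.988).

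The other probe sets of Dnajc10 gave the same order. 1426904_s_at read 438, 686 and 612 in null and 1433, 2117 and 1442 in control livers with tunicamycin, against 253, 394 and 370 in null and 510, 385 and 407 in control livers with vehicle. 1452230_at read 193, 281 and 268 in null and 811, 1073 and 683 in control livers with tunicamycin, against 72.8, 167 and 166 in null and 218, 154 and 142 in control livers with vehicle. In each, all 3 control tunicamycin arrays were above the other 9, and null livers with tunicamycin were called lower (-1.44, adjusted p = 0.0092, and -1.70, adjusted p = 0.00887). They kept 32.3 ± 16.2% and 33.5 ± 15.5%, and their interactions of -1.11 and -1.33 were not called on their own (adjusted p = 0.382 and 0.358). The interaction of the brightest probe set was -1.67 in a fit that took the Gapdh ratio into account (adjusted p = 0.0157). It was -1.76 (adjusted p = 0.0154) without null tunicamycin replicate 2. Leaving out 6 of the other arrays one at a time raised its adjusted p past 0.05, to 0.0579 without null tunicamycin replicate 1, 0.061 and 0.0767 without control tunicamycin replicates 1 and 2, 0.0552 and 0.0587 without null vehicle replicates 1 and 3, and 0.0551 without control vehicle replicate 3, at values of -1.67 to -1.54.

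**Figure D4:**
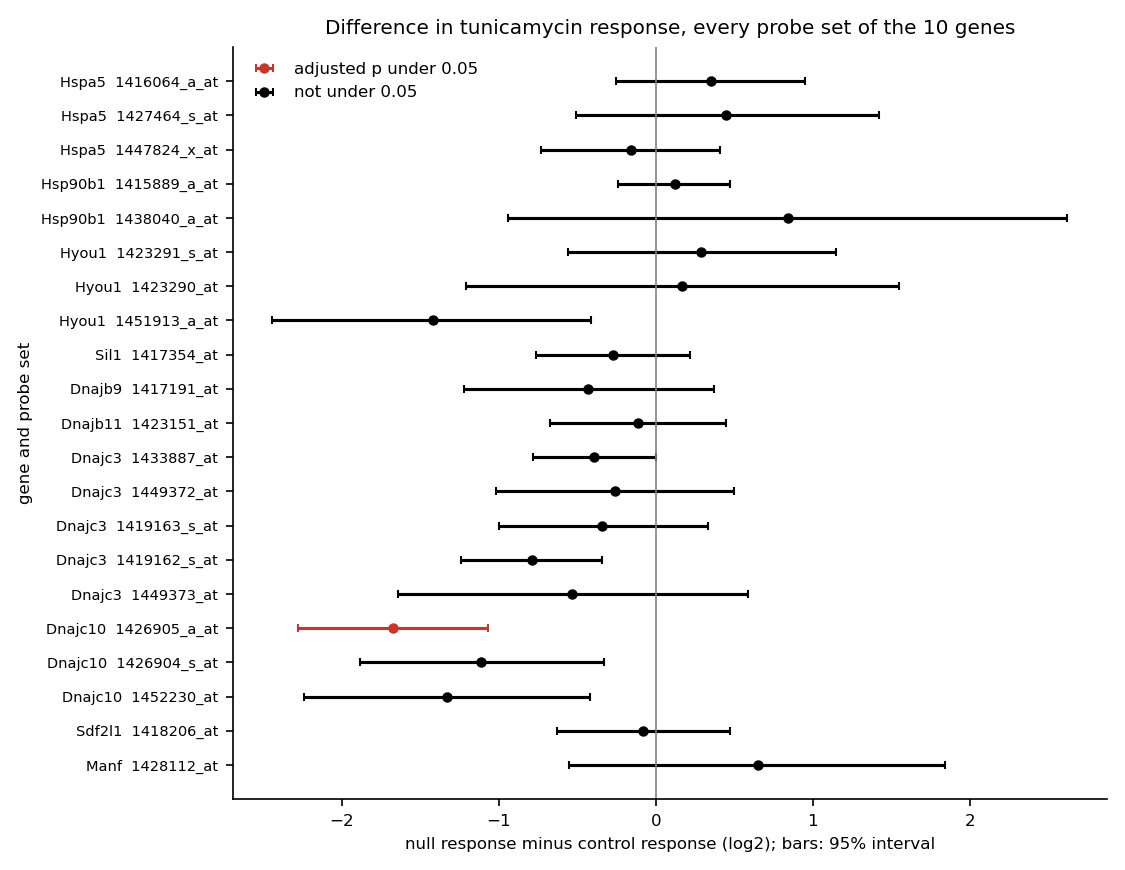
Null response minus control response (log2) of all 21 probe sets with 95% intervals, grouped by gene and ordered by brightness within a gene. The red probe set is the brightest of Dnajc10, at -1.67, and is called. The intervals of the other 2 Dnajc10 probe sets also lie below 0 without a call. So do those of 1451913_a_at of Hyou1 (-2.44 to -0.41) and 1419162_s_at of Dnajc3 (-1.24 to -0.34). That of 1433887_at of Dnajc3 ends at -0.00.

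Sdf2l1 and Manf, the cofactors, had the largest rises of the set when each gene was read by its brightest probe set. This order depends on the probe set. Hspa5, Hsp90b1 and Manf were read near the top of the range, and whether this shaped the order was not tested. In control livers the 1451913_a_at probe set of Hyou1 rose by 3.65, above Manf at 3.43. This probe set was dim with vehicle, at 23 to 69.4 in null and 21.9 to 38.3 in control livers. In null livers 1438040_a_at of Hsp90b1 rose by 3.74, close to Sdf2l1 at 3.82. Sdf2l1 forms a complex with ERdj3 and keeps misfolded proteins from aggregating. It read 3706, 2903 and 3639 in null and 4352, 5250 and 4284 in control livers with tunicamycin, against 225, 195 and 172 in null and 336, 194 and 235 in control livers with vehicle. Null arrays with tunicamycin were below control arrays with it, and the vehicle groups overlapped. The rise was 3.82 ± 0.17 (14.2-fold, adjusted p = 2.14e-07) in null and 3.90 ± 0.17 (15-fold, adjusted p = 8.17e-08) in control livers. It kept 98 ± 6.27%, and the interaction was -0.08 (95% interval -0.62 to 0.46).

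Manf, a small secreted protein that binds BiP and slows its nucleotide exchange, read 11611, 11023 and 12213 in null and 12183, 14084 and 13174 in control livers with tunicamycin, against 322, 1178 and 575 in null and 1927, 646 and 1003 in control livers with vehicle. Vehicle values were spread widely within both genotypes, with null replicate 1 the lowest and control replicate 1 the highest. The rise was 4.08 ± 0.39 (16.9-fold, adjusted p = 3.97e-05) in null and 3.43 ± 0.39 (10.8-fold, adjusted p = 6.3e-05) in control livers. The null response was 119 ± 17.6% of the control response, and the interaction of 0.65 spanned -0.55 to 1.84. Over the 10 genes, control vehicle replicate 1 was the highest of the 6 vehicle arrays for 5 genes and the lowest for 2. Null vehicle replicate 1 was the lowest for 4 and the highest for 2.

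Set directly against each other with tunicamycin, null livers were lower than control livers for 2 genes, Dnajb9 and Dnajc10, and higher for none. Over all genes 3.23% were called lower and 0.755% higher in this comparison. The groups did not overlap for 6 of the 10 genes, against 21.8% of all genes, and all 6 were lower in null livers (Sil1, Dnajb9, Dnajb11, Dnajc3, Dnajc10 and Sdf2l1). The median difference of the 10 genes was -0.34, where that over all genes was 0.02. Of the 21 probe sets 5 were called lower (2.01% of all probe sets), the 3 of Dnajc10 and 2 of Dnajc3, and Dnajb9 was not among them with the p adjusted over all probe sets (adjusted p = 0.0635). One of the 21 was called lower in the interaction (0.366% of all probe sets). At their brightest probe sets the groups overlapped for Hspa5, Hsp90b1, Hyou1 and Manf, with values from -0.13 to 0.15. Of these 4 genes 3 were the ones read near the top of the signal range, Hspa5, Hsp90b1 and Manf. Other probe sets gave 0.01 and -0.04 for Hspa5, -0.40 for Hsp90b1, and 0.12 and -1.12 for Hyou1, none called. At the last, 1451913_a_at, the groups did not overlap (adjusted p = 0.132).

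**Figure D5:**
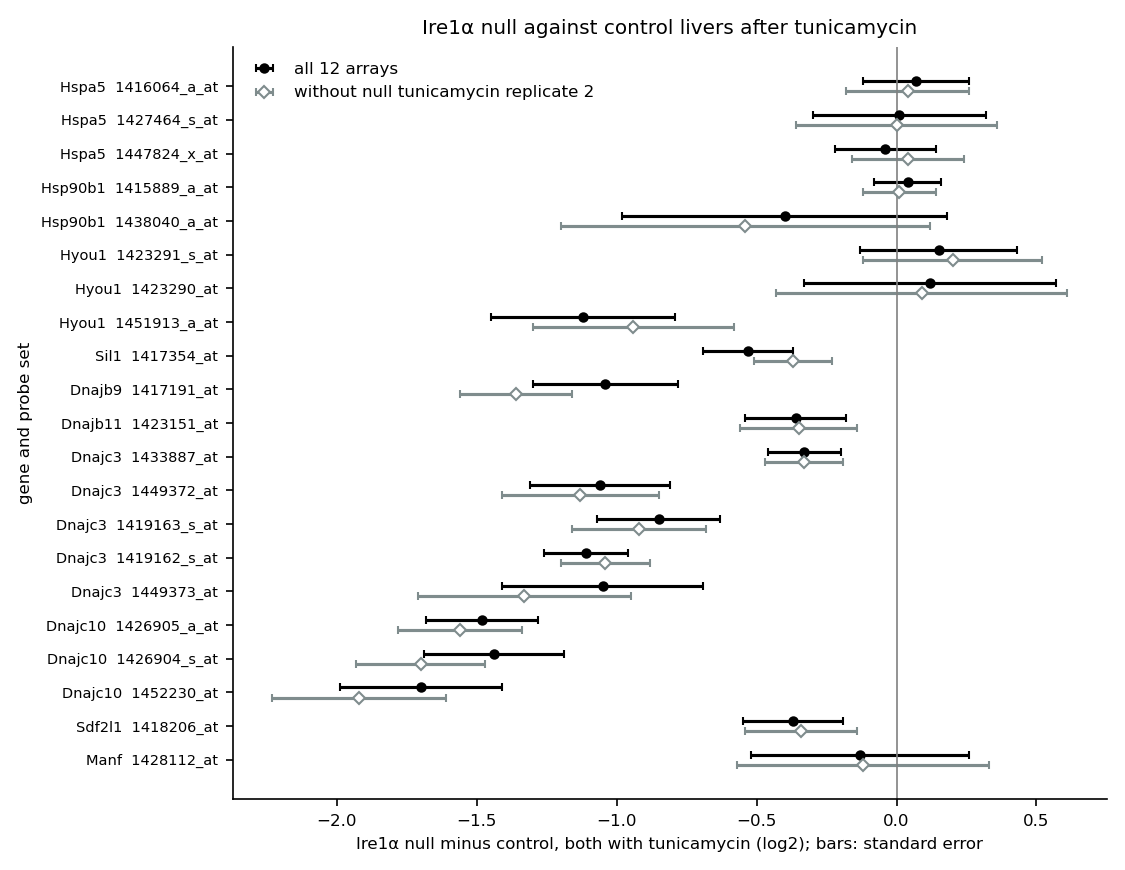
Null minus control, both with tunicamycin (log2), for all 21 probe sets with all 12 arrays (filled circles) and without null tunicamycin replicate 2 (open diamonds), with standard errors. The 3 probe sets of Dnajc10 lie between -1.70 and -1.44 with all arrays, and that of Dnajb9 moves to -1.36 without the array, against -1.04 with it.

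With vehicle no gene of the set was called different between the genotypes by limma, and no gene of the 14568 was (0% of genes and 0% of probe sets), while 597 genes had an unadjusted p under 0.05. The median difference of the 10 genes was -0.25, where that over all genes was -0.00. Normalised values of null and control livers did not overlap for 3 genes (8.15% of all genes), Hsp90b1 (-0.08), Sil1 (-0.26) and Dnajb9 (-0.61), each lower in null livers.

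Genes with a full and a partial response by size shared promoter elements. Of the 3 promoters with the full ER stress element, Hspa5 kept 124%, Hsp90b1 115% and Dnajc3 73%. The 2 promoters with CCACGT belonged to Dnajb9 and Dnajc3, both partial by size at their brightest probe sets. That label was not steady. Dnajc3 kept 89.1, 85.7 and 83.6% at 1449372_at, 1419163_s_at and 1449373_at, and Dnajb9 kept 83.6% with values as deposited. Dnajb11, with the second kind of ER stress element, kept 95.7%. Dnajc10, which kept the least, held none of the elements searched. Sdf2l1, which also held no ER stress element of these forms, kept 98%. With 7 promoters this is a description and was not tested.

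The genes whose profile over the 12 arrays was most like that of a member were found as the smallest root mean square difference of centred log2 values. For Dnajc10 they were Fam214b (0.11), Lrrc59 (0.13) and Parn (0.14). Eif2ak3, which encodes the PERK kinase, was nearest to Dnajb9 (0.21), and Dnajb11 was nearest to Slc35b1 (0.17), Nfil3 (0.20) and the ER oxidase gene Ero1b (0.22). Sdf2l1 lay nearest to Hey2 (0.32), Syvn1 (0.38) and Pdia4 (0.39). Among the members themselves the closest pair was Hsp90b1 and Dnajc3 (0.25) and the farthest Sil1 and Manf (1.79).

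Related genes were read from lists chosen with earlier results of these data known. The counts of all lists stand beside the following shares over all genes. In null livers 7.59% rose and 9.23% fell, and in control livers 11.6% rose and 13.3% fell. With tunicamycin 3.23% were lower and 0.755% higher in null livers, and 0.824% were called lower in the interaction. Some lists are short and lie near these shares, and no list was tested as a set. Among 9 measured J proteins and paralogs of the ER outside the set, 1 rose in null livers, Dnajc1 (1.09), while 4 rose and 1 fell in control livers. Hspa13, an Hsp70 relative of microsomes also known as Stch, had changes of 0.59 ± 0.20 in null livers (adjusted p = 0.0682) and 2.24 ± 0.20 in control livers (adjusted p = 1.25e-05). With tunicamycin it was lower in null livers by a log2 difference of -2.20 (adjusted p = 0.000192), with an interaction of -1.65 (adjusted p = 0.0257). Sdf2, the paralog of Sdf2l1, had changes of -0.11 in null and 0.27 in control livers, neither called.

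Among 6 measured Grp94 cofactors and client-specific chaperones, 1 rose and 1 fell in null livers, and 2 rose and 1 fell in control livers. Cnpy3, a Grp94 cofactor for Toll-like receptors, rose by 1.06 in null and 1.66 in control livers and was lower in null livers with tunicamycin (-0.98, adjusted p = 0.00572). In the calnexin and calreticulin cycle 4 of 8 genes rose in null and 5 in control livers, and Mogs and Uggt1 were lower in null livers with tunicamycin (-1.06, adjusted p = 0.00216, and -0.64, adjusted p = 0.0336). Uggt1, the folding sensor of this cycle, rose by 1.18 in null and 1.83 in control livers.

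Of 18 disulfide isomerases and oxidases 10 rose and 1 fell in null livers, 12 rose and 1 fell in control livers, and 8 were lower in null livers with tunicamycin. Pdia4 rose by 3.35 in null and 3.62 in control livers, and Creld2 by 4.78 in null and 5.05 in control livers. The interaction was called for 3 of the 18, Txndc5 (-1.36, adjusted p = 0.0493), Txndc11 (-1.12, adjusted p = 0.0286) and Pdia5 (-1.11, adjusted p = 0.0286). Of 7 prolyl isomerases 2 rose and 1 fell in null livers and 4 rose in control livers. Fkbp11 rose by 1.03 in null and 3.52 in control livers, with an interaction of -2.49 (adjusted p = 0.0298), and Fkbp14 had an interaction of -1.73 (adjusted p = 0.0136).

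Among 17 measured cytosolic and mitochondrial chaperones 4 rose in null livers, and 3 rose and 2 fell in control livers. Bag3, a cytosolic Hsp70 cofactor, rose by 0.85 in null and 2.01 in control livers and was lower in null livers with tunicamycin (-1.62, adjusted p = 0.00369). Of 11 sensors and factors of the unfolded protein response 8 rose in each genotype. With tunicamycin Xbp1 transcript was higher in null livers (0.56 ± 0.14, adjusted p = 0.0434), and Atf6b (-1.15, adjusted p = 0.00134) and Atf6 (-0.64, adjusted p = 0.0441) were lower. In the limma fit over every probe set Xbp1 was called at none of its probe sets. They gave 0.38 to 0.95, with adjusted p from 0.0699 (the brightest) to 0.614. Eif2ak3 rose by 1.12 in null and 2.03 in control livers, and null minus control with tunicamycin was -1.14 (adjusted p = 0.0854).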

How the data were processed

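Total RNA of mouse liver, extracted with Trizol, was labelled with biotin from 6 µg by the Affymetrix protocol, per the labels. The deposited table holds 1 linear intensity for each probe set and array. How probes were summarised or scaled is stated in no source used here, and array quantiles differed. Of 45101 probe sets 64 controls were left out, and 34945 had 1 symbol in the platform annotation, 932 several and 9160 none. Gene IDs of 34741 were found in RefSeq, which changed 0 symbols. Intensities were taken as log2(value + 16) and quantile normalised between the 12 arrays. The 30% dimmest probe sets were left out, and the brightest probe set of each gene was kept, which gave 14568 genes. Group means were fitted with lmFit and eBayes of limma 3.58.1 in R 4.3.3 (8 residual degrees of freedom; files were read with version 1.17.8 of data.table), in 5 contrasts with Benjamini-Hochberg adjustment over all genes. Probe sets were fitted again without the filter, over 34945. Rises and falls are named only for calls at adjusted p under 0.05.

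The members, lists and tests were chosen with earlier results of these data known. Named genes are the 10 members, Ern1, Xbp1, Atf6, Eif2ak3, Sdf2, up to 3 members of each other list with the largest change in a contrast, and the 3 genes nearest to a member. Marker lists (9) covered hepatocytes, other liver cell types, kidney and pancreas. Replicate numbers were not taken as pairs in the main fit. Deviations from group means correlated at -0.41 to 0.49 (median -0.0481) over 18 pairs of arrays with the same number. Over 36 pairs with different numbers they correlated at -0.449 to 0.366 (median -0.0121). With 3 arrays per group these values cannot exclude a pairing. Samples are titled as biological replicates and single animals are not named, so p-values measure the spread between these samples. Alternatives were 2 pseudocounts, 2 filters, median centring or no normalisation, other choices of probe set, eBayes and array weight options, a replicate block, 2 RNA ratios as covariates, another threshold, a fit of the compared groups and leaving out each array. The fit was tested on simulated data. Figures used matplotlib 3.10.9 in Python 3.11.15 with pandas 2.3.3.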

Additional observations from a re-analysis of the deposited data

Results flagged for a closer look

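The tunicamycin response of Dnajc10 differed between the genotypes, with an interaction of -1.67 ± 0.27 (limma adjusted p = 0.0177): 0.23 in null and 1.90 in control livers. It was the single member whose responses differed by the test of the difference itself, and 0.824% of all genes were called lower in that test. The call was lost in 9 of 28 alternatives, with limma adjusted p up to 0.343. The other probe sets of Dnajc10 were not called in the interaction.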

How the results depend on the processing

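Over 29 alternatives 1440 values of single genes were recomputed. Of these, 1392 kept their side of the threshold, 47 fell short of it, 1 passed it and none that was called reversed. Among the 1392 were 25 values, called in neither setting, that changed sign. The rises of 8 members in null livers held throughout, and 9 or 10 members rose in control livers. The interaction of Dnajc10 ran from -1.82 to -1.33 (adjusted p 0.00612 to 0.343); with its lowest probe set it was -1.33 (0.343) and with its probe sets averaged -1.37 (0.0536). The percent kept was under 80 in 29 of 29 settings for Dnajc10 (4.28 to 33.5) and Sil1 (13.4 to 77.4), 27 for Dnajc3 (69.2 to 83.6), 23 for Dnajb9 (60.6 to 89.3) and 1 for Hyou1 (60.9 to 143). It was never under 80 for Hspa5 (93.9 to 144), Hsp90b1 (108 to 129), Dnajb11 (89.5 to 101), Sdf2l1 (94.7 to 102) or Manf (107 to 136).

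Members lower in null livers with tunicamycin numbered 1 rather than 2 with pseudocount 1, no filter, every probe set on its own, the replicate block, only the groups compared, the Gapdh or actin covariate, adjusted p under 0.01 or the lowest probe set, and 1 to 2 without single arrays. They numbered 3 with the mean of probe sets. Members called in the interaction numbered 0 with the mean of probe sets, adjusted p under 0.01 or the lowest probe set, and 0 to 1 without single arrays. Over all genes, interaction calls numbered 71 with pseudocount 1, 186 with 64, 225 with array weights, 59 with the replicate block, 65 with the actin covariate, 16 at adjusted p under 0.01 and 36 with the lowest probe set, against 122, and 14 to 126 without single arrays. Null against control calls with tunicamycin numbered 1284 with array weights, 364 with only the groups compared, 267 at adjusted p under 0.01 and 359 with the lowest probe set, against 581, and 279 to 588 without single arrays. With vehicle there was 1 call with the replicate block or only the groups compared. Tunicamycin calls in null livers numbered 1487 with only the groups compared, 1144 at adjusted p under 0.01 and 1385 with the lowest probe set, against 2449, and 1614 to 2415 without single arrays. In control livers they numbered 1765 with the actin covariate, 2121 at adjusted p under 0.01 and 2414 with the lowest probe set, against 3636, and 2582 to 4071 without single arrays. Partial responses by size numbered 3 to 4. The replicate block lost the calls of Dnajb9 between genotypes (adjusted p = 0.08) and of Sil1 in control livers (0.0628) and changed no other call of a member. The alternative with the lowest probe set was chosen after seeing the data. The 3 arrays per group limit the precision of every value, and signals near the top of the range that of the brightest genes. The causes of these shifts were not tested.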
